A study of Mus musculus with 10 samples.

Results

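The nuclear-encoded subunits of the mitochondrial respiratory chain were followed in mouse liver tumours of 2 kinds, the first carrying Foxo1AAA beside Akt and Nras (named Akt/Nras/Foxo1AAA, n = 3) and the other lacking Foxo1AAA (named Akt/Nras, n = 3), and in normal livers of wild-type FVB mice (n = 4). A gene was taken as a subunit gene when the deposited table listed it as protein coding and its symbol began with Nduf and a subunit letter and number, Uqcr, Cox4 to Cox8 or Atp5, or was Sdha, Sdhb, Sdhc or Sdhd. This rule took 88 rows of the 56748 in the table, with 87 different symbols since Atp5o has 2 rows. By prefix, 39 rows belong to complex I, 4 to complex II, 8 to complex III, 19 to complex IV and 18 to complex V.

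The tumours model hepatocellular carcinoma, the main cancer of hepatocytes, and arose after hydrodynamic injection into the tail vein, a rapid infusion that drives DNA into hepatocytes in the living animal. Akt is a growth-promoting kinase, Nras is a small GTPase of the Ras family, and Foxo1AAA is a form of the transcription factor Foxo1 that Akt cannot inactivate because its Akt sites were changed to alanine. Both tumour groups thus carry Akt and Nras and differ by Foxo1AAA. The labels give no promoter for the transgenes, no age, no control injection for the normal livers, and no statement that each library came from a separate mouse, so the p-values measure the spread between these libraries, which may be technical.

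The respiratory chain sits in the inner mitochondrial membrane. Complex I takes electrons from NADH and complex II from succinate, ubiquinone carries them to complex III, which passes them to cytochrome c, and complex IV hands them to oxygen, while complex V, the ATP synthase, uses the proton gradient that complexes I, III and IV build up. All complexes but complex II also hold subunits encoded by the mitochondrial genome, and hepatocytes are rich in mitochondria, which they need for fatty acid oxidation, urea synthesis and gluconeogenesis.

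The values are FPKM, fragments per kilobase of gene length and per library size, which can be compared between genes. The reads behind the FPKM, in units of 1000000, numbered 15.4 to 20.7 per Akt/Nras/Foxo1AAA tumour, 16.2 to 21.3 per Akt/Nras tumour and 13.6 to 17.5 per normal liver. The library size used as divisor behind the FPKM was not these summed reads but 0.875 to 0.928 of them in Akt/Nras/Foxo1AAA tumours, 1.002 to 1.06 in the Akt/Nras tumours and 0.629 to 0.668 in normal livers, a smaller divisor giving higher FPKM. FPKM added up to 413812.4 to 444893 per Akt/Nras/Foxo1AAA tumour, 349618.6 to 381653.1 per Akt/Nras tumour and 692009.9 to 743202.8 per normal liver. Changes are given on the deposited scale unless stated otherwise, and the main counts also after each library was scaled to an equal total of 1000000. The change to equal totals moved the median log2 change of all tested genes to 0.52 in Akt/Nras/Foxo1AAA tumours and 0.78 in Akt/Nras tumours, against -0.09 and -0.07 as deposited. All 8 hepatocyte markers examined were detected, with a sum of 29304 to 41062 FPKM in Akt/Nras/Foxo1AAA tumours, 24374 to 26821 FPKM in the Akt/Nras tumours and 73809 to 78161 FPKM in normal livers. Markers of bile duct cells summed to 2769 to 5511 FPKM, 4219 to 5905 FPKM and 16.3 to 24.2 FPKM in the same order of groups, those of macrophages to 303 to 593, 427 to 537 and 85.4 to 123 FPKM, and those of stromal cells to 80.3 to 109, 132 to 161 and 13.0 to 14.5 FPKM. Endothelial markers summed to 32.0 to 39.6, 29.5 to 41.6 and 27.4 to 35.5 FPKM, erythroid markers to 2045 to 3687, 1009 to 2522 and 1001 to 1786 FPKM, and lymphocyte markers to no more than 2.72 FPKM in any library. The sum of the bile duct markers was carried by Spp1, at a mean of 3953, 5032 and 16.9 FPKM, and Krt19 did not pass the test in Akt/Nras/Foxo1AAA tumours. That of the macrophage markers was carried by Cd14 in the tumours, and Clec4f was lower in Akt/Nras tumours. The endothelial sums hide opposite changes, with 3 of 6 markers higher in each tumour group and Clec4g lower in Akt/Nras tumours. Of 5 erythroid markers 3 were higher in Akt/Nras/Foxo1AAA tumours, and 1 was lower and 0 higher in Akt/Nras tumours. Of 6 stromal markers 5 were higher and 1 was lower in each tumour group. The hepatocyte, bile duct, macrophage and stromal sums of the tumours lay apart from those of normal livers. The endothelial and lymphocyte sums overlapped with normal livers, as did the erythroid sums in Akt/Nras tumours. The part of these markers in the results below was not tested, and in bulk tissue fewer cells of a type and less RNA per cell cannot be told apart.

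Of the 88 rows, 82 passed the filter of at least 1 FPKM in at least 3 of the 10 libraries and entered the test, limma's moderated test on log2(FPKM + 1) over 12439 genes. The 6 that did not were Cox7b2, Cox8c, Ndufb11b and the second row of Atp5o, which were listed at 0 in every library, and Cox6a2 and Cox8b, which did not exceed 0.579 and 0.507 FPKM. The subunit genes were abundant. Their median level was 54.1 FPKM in Akt/Nras/Foxo1AAA tumours, 48.2 FPKM in Akt/Nras tumours and 121 FPKM in normal livers, beside medians of 4.89, 5.01 and 4.88 FPKM over all tested genes. Cox6a1, the widely expressed form of subunit 6A of cytochrome c oxidase, was the highest of them in all 3 groups.

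Nearly the whole set was lower in both kinds of tumour than in normal liver. In Akt/Nras/Foxo1AAA tumours 77 of 82 subunit genes fell and 0 rose at an adjusted p under 0.05 (limma, Benjamini-Hochberg over all tested genes), where 36.5% of all tested genes fell and 26.8% rose. In Akt/Nras tumours 77 fell and 1 rose, beside 37.9% and 31.1% of all genes. The 77 that fell were the same genes in both tumour groups, which share their normal livers. The median log2 change of the 82 was -1.09 in Akt/Nras/Foxo1AAA tumours and -1.22 in Akt/Nras tumours, and the median ratio of mean FPKM to normal liver was 0.466 and 0.423. Every library of a tumour group lay below every normal liver for 77 of the 82 genes in Akt/Nras/Foxo1AAA tumours and for 77 in Akt/Nras tumours, which holds for 37.5% and 37.4% of all tested genes. All 8 hepatocyte markers fell in both tumour groups as well, with median log2 changes of -1.64 and -2.53, and with equal totals 6 of them were lower in each tumour group and 1 was higher in Akt/Nras/Foxo1AAA tumours.

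The fall was also even from gene to gene and from library to library. The middle 50% of the subunit genes spanned 0.42 on the log2 scale in Akt/Nras/Foxo1AAA tumours and 0.42 in Akt/Nras tumours, whereas all tested genes spanned 0.89 and 1.09. Against the mean of the normal livers, the median subunit gene stood at -1.01, -1.05 and -1.18 on the log2 scale in the Akt/Nras/Foxo1AAA tumours, at -1.32, -1.22 and -1.16 in the Akt/Nras tumours and between -0.09 and 0.09 in the normal livers. No tumour library came near the normal livers, and the median of all tested genes stayed between -0.10 and 0.00 in all 10 libraries.

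**Figure D1:**
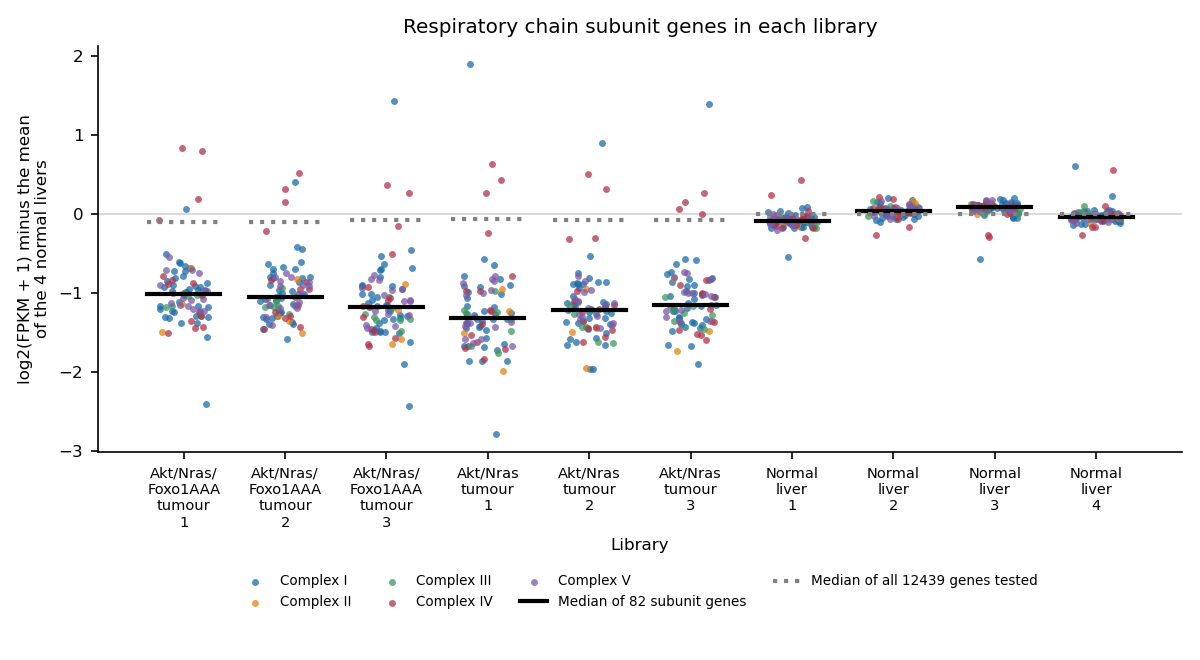
Change of each of the 82 tested subunit genes (points, coloured by complex) in each library against the mean of the 4 normal livers, on the log2(FPKM + 1) scale of the deposited values. Black bars give the median of the subunit genes and dotted grey bars the median of all 12439 tested genes; in the 6 tumour libraries the black bars lie between -1.32 and -1.01, and a few points above 0 belong to Ndufa4l2 and low or flat complex IV genes.

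How far the set fell depended on the scaling, while it lay below most other genes on both scales. With equal totals 58 of 82 fell and 5 rose in Akt/Nras/Foxo1AAA tumours, beside 13.5% and 61.2% of all tested genes, and 47 fell and 7 rose in Akt/Nras tumours, beside 13.8% and 69.2%. The median log2 change of the set was then -0.38 and -0.26. On both scales 78 subunit genes in Akt/Nras/Foxo1AAA tumours and 77 in Akt/Nras tumours had a lower log2 change than the median gene, and the set's median minus that of all tested genes was -0.996 and -1.15 as deposited and -0.90 and -1.04 with equal totals. As a share of all summed FPKM, which does not depend on the scaling, the 88 rows made up 1.49%, 1.46% and 1.43% in Akt/Nras/Foxo1AAA tumours, 1.53%, 1.61% and 1.59% in Akt/Nras tumours and 1.83%, 1.86%, 1.95% and 1.84% in normal livers. The 3 groups did not overlap in this share, which was lowest in the Akt/Nras/Foxo1AAA tumours.

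**Figure D2:**
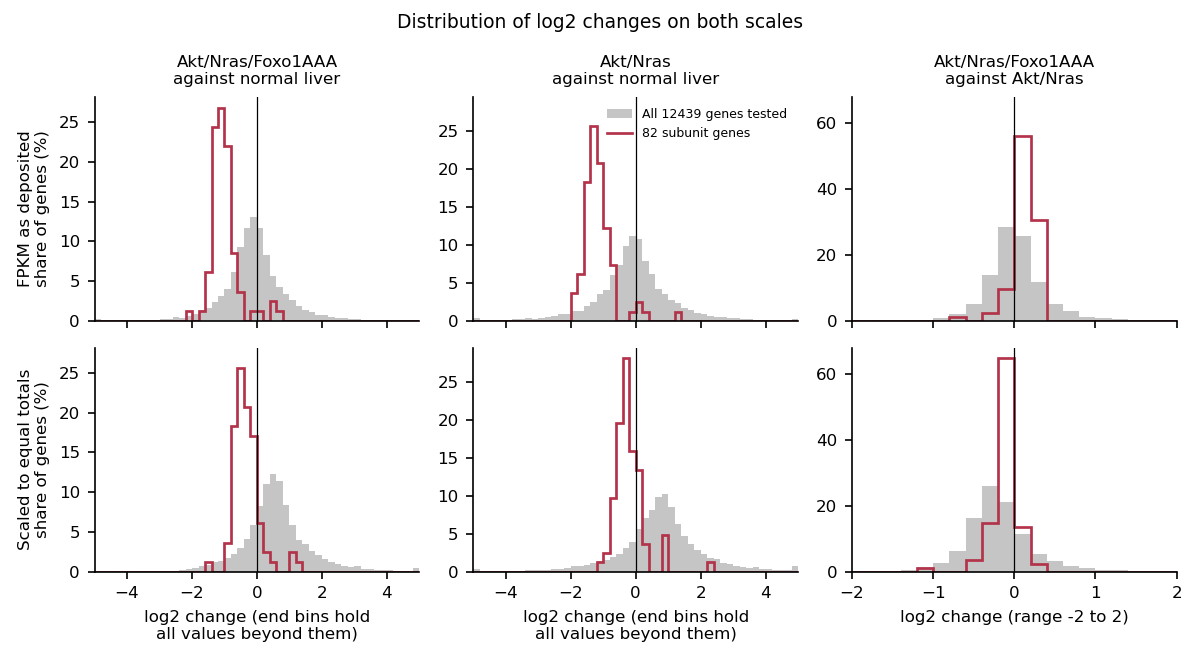
Distribution of log2 changes of all 12439 tested genes (grey) and of the 82 subunit genes (red line) in the 3 comparisons, as deposited (upper row) and scaled to equal totals (lower row); the y axis is the share of genes in each bin of 0.2. Against normal liver the subunit genes lie left of the bulk of genes on both scales, with set medians of -1.09 and -1.22 as deposited and -0.38 and -0.26 with equal totals.

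Because the subunit genes moved together, the letters in front of their start sites were compared. RefSeq promoters on GRCm38.p6, each reaching from 250 bases before to 50 bases after the start, were found for 69 of the 87 symbols. On either strand, GCGCATGCG, letters bound by NRF1, a factor known to drive respiratory genes, stood in the promoters of 8 of these 69 genes (11.6%), against 4.04% of 9007 tested genes with a promoter and 1.75% of all 32851 promoters of this length. AAGATGGCG, bound by YY1, stood in 7 genes (10.1%), against 3.66% of tested genes and 1.40% of all promoters. CAAGGTCA, bound by estrogen-related receptors such as Esrra, stood in 4 genes (5.8%), against 1.43% and 1.56%. CCGGAAGT, bound by ETS factors such as GABP, stood in 5 genes (7.2%), against 9.17% and 3.89%, and TATAAA stood in 8 genes (11.6%), against 9.25% and 13.62%. Subunit promoters held a median of 19 CpG and 57.5% G and C, those of tested genes 20 CpG and 60.7%, and the 300 bases of all promoters 7 CpG and 52.7%. In Akt/Nras tumours the median log2 change was -1.11 for the 8 genes with the NRF1 letters and -1.25 for the 59 tested ones without. A match is a string of letters and not a shown binding site.

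The 150 bases from 120 before to 30 after the start are given for Uqcr11, which holds both NRF1 and GABP letters and differed between the tumour groups, for Atp5k, the complex V gene with the lowest log2 change, for Atp5g3, a c subunit gene with the letters of estrogen-related receptors, and for Cox7a2l, which did not fall and holds none of the letters searched in the window shown. They are written 5′ to 3′ on the gene's strand, with the matched letters in capitals; a capital run may be the reverse complement of the letters named, and 2 overlapping NRF1 matches form the run of Atp5k.
Uqcr11 (chr10:80406792-80406941, minus strand): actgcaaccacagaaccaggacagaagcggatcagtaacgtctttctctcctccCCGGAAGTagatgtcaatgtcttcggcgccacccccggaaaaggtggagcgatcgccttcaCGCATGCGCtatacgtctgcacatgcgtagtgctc
Atp5k (chr5:108434370-108434519, minus strand): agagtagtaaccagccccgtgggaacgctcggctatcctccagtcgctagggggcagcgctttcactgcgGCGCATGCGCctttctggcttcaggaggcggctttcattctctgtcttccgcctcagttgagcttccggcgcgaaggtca
Atp5g3 (chr2:73911297-73911446, minus strand): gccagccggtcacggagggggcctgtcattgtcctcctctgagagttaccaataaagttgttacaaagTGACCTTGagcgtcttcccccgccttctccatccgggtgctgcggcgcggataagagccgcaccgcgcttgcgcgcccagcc
Cox7a2l (chr17:83514304-83514453, minus strand): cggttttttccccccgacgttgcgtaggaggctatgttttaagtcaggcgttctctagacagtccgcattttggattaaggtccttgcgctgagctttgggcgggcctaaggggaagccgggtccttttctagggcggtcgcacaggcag

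By median log2 change, complexes II and III fell furthest. The median log2 change was -1.27 over the 4 complex II genes and -1.15 over the 8 of complex III in Akt/Nras/Foxo1AAA tumours, beside -1.07 over 38 genes of complex I, -1.0 over 15 of complex IV and -0.996 over 17 of complex V. In Akt/Nras tumours the medians were -1.42, -1.32, -1.22, -1.12 and -1.19 in the same order of complexes. The median of complex IV takes in Cox4i2, Cox6b2 and Cox7a1, which rested on at most 46 reads in a library, and Cox7a2l, which did not fall. All tested genes of complexes II, III and V fell in both tumour groups, as did 37 of 38 of complex I and 11 of 15 of complex IV, on the deposited scale where 36.5% and 37.9% of all tested genes fell. With equal totals the genes called lower in Akt/Nras/Foxo1AAA tumours were 26 of complex I, 3 of complex II, 8 of complex III, 9 of complex IV and 12 of complex V, and 2 of complex I and 3 of complex IV were called higher. In Akt/Nras tumours they were 23, 3, 7, 6 and 8 in the same order of complexes, with 3 of complex I and 4 of complex IV called higher. Summed over its rows, complex II reached 299, 264 and 253 FPKM in Akt/Nras/Foxo1AAA tumours, 240.2, 228 and 247 FPKM in Akt/Nras tumours and 612, 697, 689.5 and 638 FPKM in normal livers. Its share of the 5 complexes' summed FPKM, which any scaling leaves unchanged, was 4.08% to 4.53% in Akt/Nras/Foxo1AAA tumours, 4.06% to 4.30% in the Akt/Nras tumours and 4.84% to 5.05% in normal livers. The share of complex III was likewise lower in every tumour, at 14.1% to 14.5%, 13.4% to 13.9% and 15.1% to 15.6%. Complex V had the opposite pattern, with 21.9% to 22.6% in Akt/Nras/Foxo1AAA tumours, 22.5% to 23.2% in the Akt/Nras tumours and 21.5% to 21.7% in normal livers. The share of complex I was 31.3 ± 0.538%, 30.6 ± 0.700% and 30.4 ± 0.299% (SD, n = 3, 3 and 4). That of complex IV was 27.9 ± 0.259%, 28.7 ± 0.250% and 27.7 ± 0.303%. In Akt/Nras tumours the complex IV share, 28.4% to 28.8%, lay above that of all normal livers, 27.3% to 28.0%. Otherwise the tumour shares of complexes I and IV overlapped with those of normal livers. These shares describe the libraries and were not tested.

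**Figure D3:**
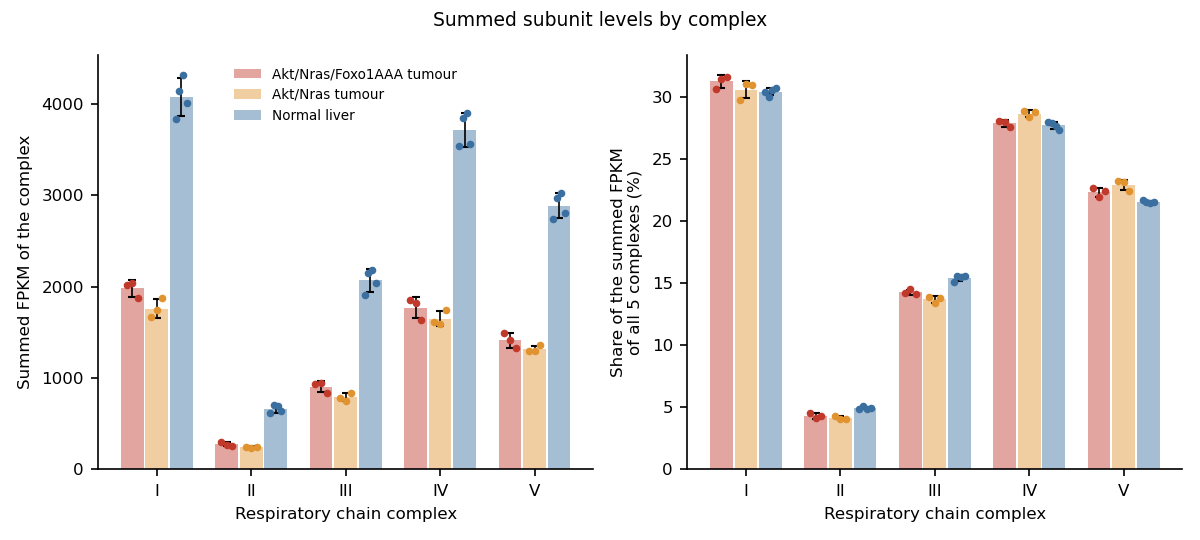
Summed FPKM of each complex (left) and its share of the summed FPKM of all 5 complexes in percent (right). Bars are group means, error bars SD and points single libraries, with Akt/Nras/Foxo1AAA tumours (n = 3), Akt/Nras tumours (n = 3) and normal livers (n = 4) from left to right in each complex; complex II falls to 4.29% and 4.15% of the total in the tumours, against 4.91% in normal liver.

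Complex I is the largest, and its catalytic subunits fell as a group. The subunits that take electrons from NADH, called the N module, sit at the tip of its matrix arm. Ndufv1, which binds NADH and flavin, had 57.3, 53.6 and 52.5 FPKM in Akt/Nras/Foxo1AAA tumours, 53.3, 44.6 and 52.8 FPKM in Akt/Nras tumours and 107, 115, 118 and 111 FPKM in normal livers. Ndufv2, an iron-sulfur subunit beside it, had 35.7, 36.4 and 34.0 FPKM in Akt/Nras/Foxo1AAA tumours, 33.1, 33.6 and 34.9 FPKM in Akt/Nras tumours and 78.7, 79.1, 88.4 and 79.0 FPKM in normal livers. In both genes the tumour libraries formed one tight group far under the normal livers. Ndufs1, the largest iron-sulfur subunit, had 9.80, 7.48 and 7.41 FPKM in Akt/Nras/Foxo1AAA tumours, 7.42, 7.99 and 8.05 FPKM in Akt/Nras tumours and 18.4, 21.1, 21.5 and 19.8 FPKM in normal livers, values kept low by a listed gene length of 8086 bases. All 8 N module genes fell in both tumour groups, with a median log2 change of -0.91 in Akt/Nras/Foxo1AAA tumours and -1.03 in Akt/Nras tumours, and of -0.20 and -0.07 with equal totals.

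The 5 genes of the Q module, where electrons reach ubiquinone, also all fell as deposited, with medians of -1.31 and -1.46, and of -0.60 and -0.51 with equal totals. Ndufs3, one of its core subunits, had 42.9, 43.0 and 42.3 FPKM in Akt/Nras/Foxo1AAA tumours, 40.7, 35.5 and 39.0 FPKM in Akt/Nras tumours and 98.8, 111, 113 and 107 FPKM in normal livers. Ndufs7, which carries the last iron-sulfur cluster before ubiquinone, had 55.3, 49.1 and 43.6 FPKM in Akt/Nras/Foxo1AAA tumours, 38.5, 38.9 and 44.2 FPKM in Akt/Nras tumours and 117, 127, 135 and 121 FPKM in normal livers. Ndufs8, an iron-sulfur subunit next to it, had 66.9, 62.7 and 58.9 FPKM in Akt/Nras/Foxo1AAA tumours, 46.1, 58.3 and 63.1 FPKM in Akt/Nras tumours and 120.2, 134, 136 and 129.7 FPKM in normal livers. For these 3 genes the highest tumour stayed well under the lowest normal liver.

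The membrane arm of complex I, where the accessory Ndufb subunits sit, held steep falls with small errors. Ndufb9, one of these, was the complex I gene that fell most in Akt/Nras tumours, with 48.7, 47.7 and 38.2 FPKM in Akt/Nras/Foxo1AAA tumours, 39.3, 36.4 and 38.3 FPKM in Akt/Nras tumours and 129, 145, 158 and 149 FPKM in normal livers. Its log2 change was -1.68 (SE 0.10, adjusted p = 3.98e-07, limma) in Akt/Nras/Foxo1AAA tumours and -1.90 (SE 0.10, adjusted p = 9.53e-08) in Akt/Nras tumours. Ndufb10, a neighbouring accessory subunit, had 67.0, 67.4 and 64.0 FPKM in Akt/Nras/Foxo1AAA tumours, 47.8, 56.8 and 54.5 FPKM in Akt/Nras tumours and 174, 170.4, 185 and 175 FPKM in normal livers, and all normal livers stood far above all tumours. At the other end Ndufa11, an accessory subunit at the centre of the membrane arm, had 63.6, 66.6 and 62.7 FPKM in Akt/Nras/Foxo1AAA tumours, 50.9, 53.7 and 60.1 FPKM in Akt/Nras tumours and 84.6, 90.3, 99.9 and 89.0 FPKM in normal livers. Its log2 change of -0.49 and -0.72 as deposited became 0.22 and 0.24, both called higher, with equal totals. Ndufb2, an accessory subunit with a listed length of 5628 bases and only 130 to 248 reads per library, averaged 2.10, 1.87 and 3.57 FPKM in Akt/Nras/Foxo1AAA tumours, Akt/Nras tumours and normal livers.

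Ndufa12, an accessory subunit of the matrix arm, had the lowest log2 change of complex I in Akt/Nras/Foxo1AAA tumours, but its values are uncertain. It had 3.48, 7.63 and 3.39 FPKM in Akt/Nras/Foxo1AAA tumours, 2.44, 5.09 and 13.0 FPKM in Akt/Nras tumours and 22.1, 22.7, 14.9 and 35.2 FPKM in normal livers, so that one Akt/Nras tumour came close to the lowest normal liver. The table lists a processed pseudogene, Ndufa12-ps, at 95.2 ± 10.9 FPKM in Akt/Nras/Foxo1AAA tumours, 83.9 ± 10.9 FPKM in Akt/Nras tumours and 206 ± 27.9 FPKM in normal livers (SD, n = 3, 3 and 4). Whether reads were shared between the gene and its pseudogene was not tested. Added up as fragments, both rows together stood at 0.382 and 0.371 of normal liver and varied little within a group, whereas Ndufa12 alone stood at 0.204 and 0.289. Ndufs5 also has a listed pseudogene, Ndufs5-ps, and both rows together stood at 0.515 and 0.431 of normal liver, beside 0.457 and 0.387 for Ndufs5 alone. Cox5b-ps, which the table lists as protein coding, was itself one of the 88 rows, with a mean of 57.9, 54.1 and 160.3 FPKM, and together with Cox5b, a subunit of complex IV, stood at 0.395 and 0.354 of normal liver.

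The pair Ndufa4 and Ndufa4l2 moved in opposite directions in Akt/Nras tumours. Ndufa4 is named for complex I and is also regarded as a subunit of complex IV, and Ndufa4l2 is a close relative known to be induced by hypoxia-inducible factors. Ndufa4 had 130.4, 132 and 109 FPKM in Akt/Nras/Foxo1AAA tumours, 85.9, 99.9 and 107 FPKM in Akt/Nras tumours and 253, 298, 308 and 282 FPKM in normal livers. Ndufa4l2 had 3.52, 4.70 and 10.6 FPKM in Akt/Nras/Foxo1AAA tumours, 15.1, 7.04 and 10.4 FPKM in Akt/Nras tumours and 1.95, 3.87, 3.82 and 4.04 FPKM in normal livers. For Ndufa4 all tumours were below all normal livers. For Ndufa4l2 all Akt/Nras tumours were above them, and 2 of the 3 Akt/Nras/Foxo1AAA tumours were close to them. The log2 change of Ndufa4l2 was 1.40 (SE 0.34, adjusted p = 0.00353, limma) in Akt/Nras tumours, where it was the 1 subunit gene that rose, and 0.63 (SE 0.34, adjusted p = 0.124) in Akt/Nras/Foxo1AAA tumours. The difference between the tumour groups was -0.77 (SE 0.36, adjusted p = 0.188), and without the third Akt/Nras/Foxo1AAA tumour it was -1.16 (adjusted p = 0.0312). In no other of the fits run was Ndufa4l2 called between the tumour groups. In level Ndufa4l2 remained far below Ndufa4, at 6.28 against 124 FPKM in Akt/Nras/Foxo1AAA tumours, 10.8 against 97.6 FPKM in Akt/Nras tumours and 3.42 against 285 FPKM in normal livers.

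Complex II, succinate dehydrogenase, links the respiratory chain to the citric acid cycle and has no mitochondrially encoded subunit. Sdhb, its iron-sulfur subunit, fell most, with 67.9, 67.1 and 61.1 FPKM in Akt/Nras/Foxo1AAA tumours, 48.0, 49.3 and 57.2 FPKM in Akt/Nras tumours and 173, 212, 202 and 186 FPKM in normal livers. Sdha, the flavoprotein that oxidises succinate, had 72.8, 62.3 and 53.2 FPKM in Akt/Nras/Foxo1AAA tumours, 56.1, 56.5 and 57.1 FPKM in Akt/Nras tumours and 149.7, 180.1, 160.4 and 156 FPKM in normal livers. Sdhd and Sdhc anchor the enzyme in the membrane, and Sdhd had 109.6, 90.7 and 96.3 FPKM in Akt/Nras/Foxo1AAA tumours, 95.6, 81.7 and 87.4 FPKM in Akt/Nras tumours and 214, 223, 239 and 223 FPKM in normal livers. Sdhc fell least, with 48.8, 44.3 and 42.5 FPKM in Akt/Nras/Foxo1AAA tumours, 40.5, 40.5 and 44.8 FPKM in Akt/Nras tumours and 75.3, 81.6, 87.7 and 73.2 FPKM in normal livers. No tumour reached the lowest normal liver for any of these 4 genes. The log2 change ran from -1.55 for Sdhb (SE 0.10, adjusted p = 4.81e-07, limma) to -0.80 for Sdhc (SE 0.09, adjusted p = 2.13e-05) in Akt/Nras/Foxo1AAA tumours, and from -1.89 (SE 0.10, adjusted p = 7.16e-08) to -0.90 (SE 0.09, adjusted p = 5.82e-06) in Akt/Nras tumours. With equal totals Sdhb stood at -0.83 and -0.93 and was still called lower, while Sdhc stood at -0.09 and 0.05 and was not called.

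In complex III all 8 genes fell on the deposited scale, and with equal totals all 8 were still called lower in Akt/Nras/Foxo1AAA tumours and 7 in Akt/Nras tumours. Uqcrfs1 is the Rieske protein, the iron-sulfur subunit that takes electrons from ubiquinol, and had 132, 127 and 107 FPKM in Akt/Nras/Foxo1AAA tumours, 107, 99.8 and 111 FPKM in Akt/Nras tumours and 248, 288, 290.1 and 255 FPKM in normal livers. Uqcr11, a small accessory subunit, fell most in Akt/Nras tumours, with 195, 195 and 173 FPKM in Akt/Nras/Foxo1AAA tumours, 129.8, 142 and 159 FPKM in Akt/Nras tumours and 412, 449, 461 and 439.9 FPKM in normal livers. Uqcrb, known as the ubiquinone-binding protein, had the lowest log2 change in Akt/Nras/Foxo1AAA tumours, with 55.6, 60.2 and 48.6 FPKM in Akt/Nras/Foxo1AAA tumours, 42.8, 56.6 and 52.3 FPKM in Akt/Nras tumours and 122, 154, 138 and 140.0 FPKM in normal livers. Both orders rest on narrow margins, since the 8 genes lay between -1.32 and -1.06 in Akt/Nras/Foxo1AAA tumours and between -1.61 and -1.06 in Akt/Nras tumours. Uqcr10, another small subunit, had 173, 185 and 155 FPKM in Akt/Nras/Foxo1AAA tumours, 150.3, 138 and 152 FPKM in Akt/Nras tumours and 342, 362, 369.5 and 352 FPKM in normal livers. Uqcrh, the acidic hinge protein that helps cytochrome c dock, had 72.9, 79.8 and 79.6 FPKM in Akt/Nras/Foxo1AAA tumours, 84.2, 74.0 and 79.3 FPKM in Akt/Nras tumours and 148, 163, 177 and 177 FPKM in normal livers. It was the complex III gene that fell least in Akt/Nras tumours and the one that equal totals left uncalled there, at a log2 change of -0.09.

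**Figure D4:**
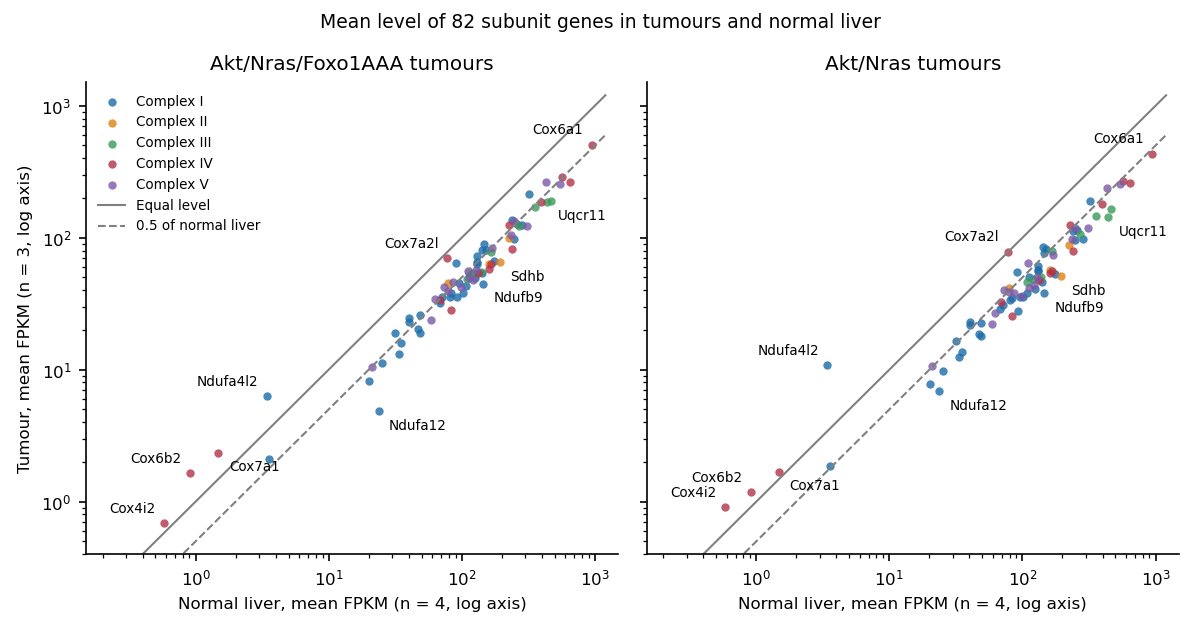
Mean FPKM of the 82 tested subunit genes in Akt/Nras/Foxo1AAA tumours (left) and Akt/Nras tumours (right) against normal liver, on log axes, coloured by complex (by symbol prefix). The solid line marks equal levels and the dashed line 0.5 of normal liver; most genes lie along the dashed line, with median ratios of 0.466 and 0.423, and Cox7a2l, Ndufa4l2, Cox4i2, Cox6b2 and Cox7a1 lie near or above the solid one.

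Complex IV, cytochrome c oxidase, has tissue forms of several subunits, and the form used in liver fell each time on the deposited scale. With equal totals Cox6a1 and Cox7a2 were not called in either tumour group, Cox7a2 standing at -0.15 in Akt/Nras/Foxo1AAA tumours and 0.11 in Akt/Nras tumours, and Cox4i1, Cox5a and Cox6b1 were called lower in Akt/Nras/Foxo1AAA tumours but not in Akt/Nras tumours. Cox4i1, the common form of subunit 4, had 309, 292 and 266 FPKM in Akt/Nras/Foxo1AAA tumours, 286, 245 and 282 FPKM in Akt/Nras tumours and 553, 573, 584 and 550.0 FPKM in normal livers. Cox5a, which sits on the matrix side, had 36.5, 34.8 and 29.9 FPKM in Akt/Nras/Foxo1AAA tumours, 34.3, 28.2 and 36.1 FPKM in Akt/Nras tumours and 65.7, 70.7, 76.5 and 60.9 FPKM in normal livers. Cox6a1 had 548, 521 and 453 FPKM in Akt/Nras/Foxo1AAA tumours, 407, 427 and 469 FPKM in Akt/Nras tumours and 921, 951, 1009 and 908 FPKM in normal livers. For each of them the tumours lay near 0.5 of normal liver. Cox6b1, which faces the intermembrane space, had 194, 190.4 and 174 FPKM in Akt/Nras/Foxo1AAA tumours, 168, 185 and 190.3 FPKM in Akt/Nras tumours and 379, 419, 395 and 392.4 FPKM in normal livers. Cox7a2, the form of subunit 7A in liver, had 127, 127 and 119 FPKM in Akt/Nras/Foxo1AAA tumours, 132, 115 and 128 FPKM in Akt/Nras tumours and 205, 234, 247 and 227 FPKM in normal livers. Cox8a, the common form of subunit 8, had 262, 272 and 260.0 FPKM in Akt/Nras/Foxo1AAA tumours, 244, 252 and 279 FPKM in Akt/Nras tumours and 609, 677, 691 and 604 FPKM in normal livers. In these 3 genes too no tumour came near a normal liver. Cox7b had 64.6, 65.9 and 58.2 FPKM in Akt/Nras/Foxo1AAA tumours, 50.1, 60.4 and 57.0 FPKM in Akt/Nras tumours and 147, 193, 169 and 159 FPKM in normal livers. Cox6c, a small membrane subunit, fell most in this complex, with 30.1, 29.7 and 25.5 FPKM in Akt/Nras/Foxo1AAA tumours, 22.6, 26.4 and 28.1 FPKM in Akt/Nras tumours and 73.6, 88.1, 87.5 and 84.1 FPKM in normal livers and a log2 change of -1.52 (SE 0.10, adjusted p = 7.53e-07, limma) in Akt/Nras/Foxo1AAA tumours and -1.66 (SE 0.10, adjusted p = 2.27e-07) in Akt/Nras tumours.

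The forms known from other tissues stayed close to the detection limit. Cox4i2, the form known from lung, had 0.769, 1.21 and 0.0888 FPKM in Akt/Nras/Foxo1AAA tumours, 1.08, 0.928 and 0.715 FPKM in Akt/Nras tumours and 1.08, 0.283, 0.663 and 0.288 FPKM in normal livers. Cox6b2, known from testis, had 2.29, 1.36 and 1.26 FPKM in Akt/Nras/Foxo1AAA tumours, 0.604, 1.68 and 1.27 FPKM in Akt/Nras tumours and 1.23, 0.805, 0.566 and 1.02 FPKM in normal livers. Cox7a1, known from heart and skeletal muscle, had 3.30, 1.67 and 2.09 FPKM in Akt/Nras/Foxo1AAA tumours, 2.73, 0.946 and 1.40 FPKM in Akt/Nras tumours and 0.958, 1.46, 0.977 and 2.55 FPKM in normal livers. All Akt/Nras/Foxo1AAA tumours were above all normal livers for Cox6b2, and the groups overlapped otherwise. None of these 3 genes, which rested on at most 46 reads in a library, passed the test on the deposited scale, while with equal totals Cox6b2 and Cox7a1 were called higher in both tumour groups and Cox4i2 in Akt/Nras tumours. Cox6a2, the muscle form of subunit 6A, had 0.0810, 0.494 and 0.206 FPKM in Akt/Nras/Foxo1AAA tumours, 0.358, 0.579 and 0.276 FPKM in Akt/Nras tumours and 0.126, 0, 0 and 0 FPKM in normal livers, at most 7 reads, and was above normal liver in all Akt/Nras tumours. Cox8b, another muscle form, had 3 reads or fewer in every library, with 0.507 FPKM in the first Akt/Nras tumour, 0.237 FPKM in the first normal liver and 0 elsewhere, and Cox7b2 and Cox8c, known from testis, were listed at 0. Myoglobin (Mb) was listed at 0 in all libraries, Ucp1, which marks brown fat, was also listed at 0, and striated muscle markers summed to 2.27 to 2.37, 2.28 to 3.31 and 1.52 to 2.37 FPKM in Akt/Nras/Foxo1AAA tumours, Akt/Nras tumours and normal livers. Brown fat markers summed to 1.56 to 14.0, 4.06 to 7.74 and 16.3 to 26.5 FPKM, but of the 2 tested 1 was lower and 1 higher in each tumour group.

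Cox7a2l was the abundant subunit gene that did not fall. It encodes a relative of subunit 7A, also named SCAF1, that is known for joining complexes III and IV into supercomplexes. It had 73.1, 66.5 and 69.3 FPKM in Akt/Nras/Foxo1AAA tumours, 92.7, 61.4 and 80.2 FPKM in Akt/Nras tumours and 79.2, 68.5, 84.4 and 76.9 FPKM in normal livers. The 3 groups overlapped. The log2 change was -0.14 (95% interval -0.43 to 0.14, adjusted p = 0.351, limma) in Akt/Nras/Foxo1AAA tumours and 0.00 (95% interval -0.29 to 0.29, adjusted p = 0.998) in Akt/Nras tumours. Cox7a2, its relative within complex IV, changed by -0.87 (95% interval -1.06 to -0.67) and -0.86 (95% interval -1.06 to -0.67), and those intervals lie apart from those of Cox7a2l. With equal totals Cox7a2l was called higher in both tumour groups, at 0.57 and 0.97, beside medians of 0.52 and 0.78 over all tested genes.

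**Figure D5:**
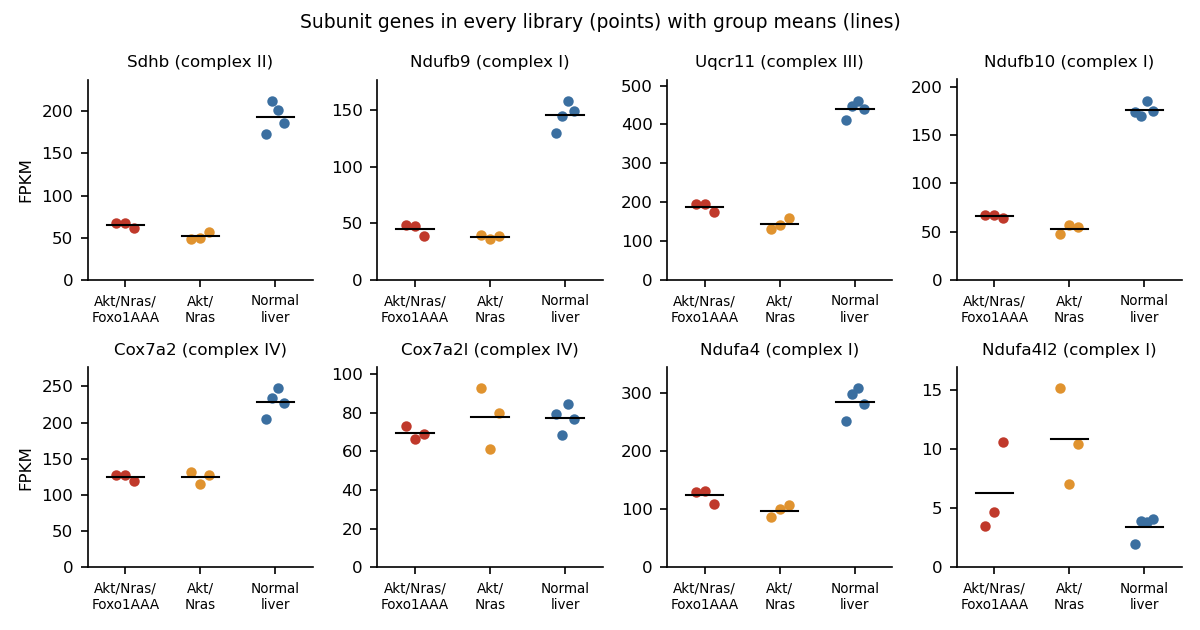
FPKM of 8 subunit genes in every library (points) with group means (lines), Akt/Nras/Foxo1AAA tumours, Akt/Nras tumours and normal livers from left to right; each y axis starts at 0. Sdhb, Ndufb9, Uqcr11, Ndufb10, Cox7a2 and Ndufa4 are lower in all tumours, Cox7a2l overlaps between the groups, and Ndufa4l2 is above normal liver in all Akt/Nras tumours.

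Complex V fell in all 17 tested genes on the deposited scale. Atp5b, the catalytic beta subunit, fell least in Akt/Nras/Foxo1AAA tumours, with 294, 255 and 242 FPKM in Akt/Nras/Foxo1AAA tumours, 238, 238 and 241 FPKM in Akt/Nras tumours and 424, 443, 439 and 409.8 FPKM in normal livers. Atp5a1, the alpha subunit that pairs with it, had 272, 250.3 and 239 FPKM in Akt/Nras/Foxo1AAA tumours, 278, 249 and 245 FPKM in Akt/Nras tumours and 524, 559, 559 and 534 FPKM in normal livers. Atp5c1, the gamma subunit that forms the turning stalk, had 109, 110.5 and 96.8 FPKM in Akt/Nras/Foxo1AAA tumours, 93.9, 96.3 and 104 FPKM in Akt/Nras tumours and 214, 247, 254 and 224 FPKM in normal livers. The tumours were clear of the normal livers in each of them. Beta and alpha form a hexamer in equal numbers, and the log2 change of beta was -0.70 (95% interval -0.89 to -0.51) and -0.84 (95% interval -1.03 to -0.65) in Akt/Nras/Foxo1AAA and Akt/Nras tumours, beside -1.10 (95% interval -1.29 to -0.91) and -1.08 (95% interval -1.27 to -0.89) for alpha. With equal totals beta was not called in either tumour group, at 0.02 and 0.13.

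Atp5g1, Atp5g2 and Atp5g3 encode the same mature c subunit, which forms the membrane ring of complex V. Atp5g1 had 37.8, 35.7 and 28.7 FPKM in Akt/Nras/Foxo1AAA tumours, 22.6, 28.4 and 29.9 FPKM in Akt/Nras tumours and 58.2, 65.8, 64.0 and 62.5 FPKM in normal livers. Atp5g2 had 52.6, 59.1 and 57.1 FPKM in Akt/Nras/Foxo1AAA tumours, 62.3, 64.1 and 65.9 FPKM in Akt/Nras tumours and 107, 109, 117 and 111 FPKM in normal livers. Atp5g3, the most abundant of them in every library, had 130.4, 124 and 115 FPKM in Akt/Nras/Foxo1AAA tumours, 117, 115 and 120.1 FPKM in Akt/Nras tumours and 282, 314, 337 and 299.9 FPKM in normal livers. All 3 fell, but in Akt/Nras tumours Atp5g2 fell least of all complex V genes, with a log2 change of -0.78 (SE 0.07, adjusted p = 4.03e-06, limma). On the deposited scale it was the 1 subunit gene for which all Akt/Nras/Foxo1AAA tumours lay below all Akt/Nras tumours. With equal totals others, such as Ndufc2 and Uqcrh, also lay wholly below. Atp5k, subunit e, which helps the enzyme form dimers, fell most in both tumour groups, with 52.7, 45.6 and 44.1 FPKM in Akt/Nras/Foxo1AAA tumours, 37.5, 44.4 and 48.7 FPKM in Akt/Nras tumours and 116, 125, 127 and 122 FPKM in normal livers and log2 changes of -1.35 (SE 0.10, adjusted p = 1.44e-06) and -1.48 (SE 0.10, adjusted p = 4.43e-07).

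Between the tumour groups the subunit genes differed little. Set against Akt/Nras tumours, 2 of 82 were higher in Akt/Nras/Foxo1AAA tumours and 0 were lower, beside 7.93% and 4.13% of all tested genes. An unadjusted p under 0.05 (limma) was found for 19, and the share of all tested genes at that level was not counted. The 2 were Uqcr11, with a log2 difference of 0.39 (SE 0.10, adjusted p = 0.0336, limma), and Ndufb10, with 0.32 (SE 0.09, adjusted p = 0.0378). In both, all 3 Akt/Nras/Foxo1AAA tumours were above all 3 Akt/Nras tumours and far below the normal livers. The calls are fragile: over 18 alternatives Uqcr11 was called in 8, with adjusted p between 0.0235 and 0.231, and Ndufb10 in 5, with adjusted p between 0.0307 and 0.56. Without the third Akt/Nras/Foxo1AAA tumour 10 subunit genes were higher and 1, Ndufa4l2, was lower, beside 1247 and 706 of all 12439 tested genes. Without the first or second Akt/Nras/Foxo1AAA tumour, the first Akt/Nras tumour or the fourth normal liver 0 were higher, and without the second Akt/Nras tumour or normal liver 1, 2 or 3 there was 1. Over all tested genes 402 to 763 were higher in the fits with 0 and 690 to 915 in those with 1. The median log2 difference over the 82 genes was 0.14, beside -0.01 over all tested genes, and 71 of 82 were above 0. Below 0 were 11 of 82, beside 51.2% of all tested genes. On the deposited scale all Akt/Nras/Foxo1AAA tumours lay above all Akt/Nras tumours for 19 subunit genes, among them Sdhb, Ndufs3, Ndufa4 and Atp5b, and below them for 1. The first holds for 16.4% of all tested genes, and the share for the second was not counted.

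The direction between the tumour groups turned with the scaling. With equal totals 5 subunit genes were lower in Akt/Nras/Foxo1AAA than in Akt/Nras tumours and 0 were higher, beside 24.2% and 5.23% of all tested genes. Below 0 were 69 of 82, beside 75.6% of all tested genes. Among the 5 called lower were Atp5g2 at -0.44, Ndufc2 at -0.27, Atp5a1 at -0.27 and Cox7a2 at -0.25. Relative to the median of all tested genes the set was higher on both scales, by 0.15 and 0.12. Hepatocyte markers moved with these groups: 6 of 8 were higher in Akt/Nras/Foxo1AAA than in Akt/Nras tumours and 0 were lower on the deposited scale, and 4 were higher with equal totals. Of the bile duct markers 2 of 5 were lower as deposited, Krt19 by a log2 difference of -2.47 and Epcam by -1.57, and of the stromal markers 3 of 6 were lower. The part of these markers in the difference was not tested.

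The subunits encoded by the mitochondrial genome had lower median changes than the nuclear ones. Of the 13 protein genes of that genome 12 fell in each tumour group, beside 36.5% and 37.9% of all tested genes. Their median log2 change was -1.68 in Akt/Nras/Foxo1AAA tumours and -2.25 in Akt/Nras tumours, and -0.96 and -1.30 with equal totals. mt-Co1, the catalytic subunit of complex IV, averaged 8501 ± 1378 FPKM in Akt/Nras/Foxo1AAA tumours, 5550 ± 524 FPKM in Akt/Nras tumours and 27494 ± 5668 FPKM in normal livers (SD, n = 3, 3 and 4). mt-Nd1, a membrane subunit of complex I, averaged 4348 ± 835, 3373 ± 68.5 and 11623 ± 1550 FPKM in the same order. mt-Atp8 was not called and varied widely, at 11.5 ± 14.5, 3.50 ± 3.00 and 32.8 ± 44.5 FPKM. Reads of the mitochondrial genome made up 2.44% to 3.48% of reads in Akt/Nras/Foxo1AAA tumours, 2.18% to 2.55% in the Akt/Nras tumours and 5.59% to 7.93% in normal livers, shares that need no scaling of FPKM. The labels do not say whether libraries were made by polyA capture or by rRNA removal, which bears on how mitochondrial transcripts are counted.

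Genes that build and feed the chain fell less evenly. Assembly factors fell in both tumour groups for 13 of 15 of complex I, all 4 of complex II, 4 of 5 of complex III and all 4 of complex V, and for 12 of 16 of complex IV in Akt/Nras/Foxo1AAA tumours and 13 in Akt/Nras tumours, where 36.5% and 37.9% of all tested genes fell. Their median log2 changes, between -0.46 and -0.73 over the 5 lists in Akt/Nras/Foxo1AAA tumours and between -0.60 and -0.95 in Akt/Nras tumours, were smaller in size than those of the subunits. The 1 FPKM added before the log shrinks the change of low genes more than that of abundant ones, and its part here was not tested. Sdhaf3 of complex II averaged 0.794 ± 0.07, 0.832 ± 0.144 and 1.56 ± 0.427 FPKM in Akt/Nras/Foxo1AAA tumours, Akt/Nras tumours and normal livers. It passed the filter only through the normal livers, so its fall was partly set by that filter. With equal totals 11 of the 44 were lower and 9 higher in Akt/Nras/Foxo1AAA tumours, beside 13.5% and 61.2% of all tested genes, and 11 lower and 14 higher in Akt/Nras tumours, beside 13.8% and 69.2%. Fmc1, an assembly factor of complex V, fell most among them, to 15.6 ± 2.01 FPKM in Akt/Nras/Foxo1AAA tumours and 15.96 ± 2.52 FPKM in Akt/Nras tumours, against 67.1 ± 6.12 FPKM in normal livers. Cox19, a copper chaperone of complex IV, was called higher in Akt/Nras/Foxo1AAA tumours, at 19.9 ± 3.86 FPKM against 13.5 ± 0.462 FPKM in normal livers.

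Of 18 genes of ubiquinone synthesis and electron delivery, 14 fell in Akt/Nras/Foxo1AAA tumours and 13 in Akt/Nras tumours, whereas with equal totals 8 were lower and 5 higher in Akt/Nras/Foxo1AAA tumours and 8 lower and 7 higher in Akt/Nras tumours. Coq8a, a kinase-like protein needed for ubiquinone synthesis, averaged 14.6 ± 4.83, 7.86 ± 0.355 and 46.0 ± 6.62 FPKM in Akt/Nras/Foxo1AAA tumours, Akt/Nras tumours and normal livers. Etfdh, which passes electrons from fatty acid oxidation to ubiquinone, averaged 12.03 ± 1.43, 10.8 ± 1.02 and 37.0 ± 1.25 FPKM. Of 13 citric acid cycle genes 12 fell in each tumour group, with medians of -0.77 and -0.86, and Mdh2, mitochondrial malate dehydrogenase, did not pass the test, at 89.9 ± 4.60, 92.2 ± 5.26 and 99.5 ± 6.63 FPKM. With equal totals 6 of the 13 were lower and 4 higher in Akt/Nras/Foxo1AAA tumours, and 5 lower and 6 higher in Akt/Nras tumours. For both lists, 36.5% and 37.9% of all tested genes fell as deposited in Akt/Nras/Foxo1AAA and Akt/Nras tumours. With equal totals 13.5% of all tested genes were lower and 61.2% higher in the first, and 13.8% lower and 69.2% higher in the second.

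Of 13 tested regulators of mitochondrial gene expression, 9 fell in each tumour group, and 1 rose in Akt/Nras/Foxo1AAA and 2 in Akt/Nras tumours. Of all tested genes 36.5% fell and 26.8% rose in Akt/Nras/Foxo1AAA tumours, and 37.9% fell and 31.1% rose in Akt/Nras tumours. Ppargc1a, a coactivator of respiratory genes, averaged 0.859 ± 0.143, 1.13 ± 0.247 and 2.38 ± 0.406 FPKM in Akt/Nras/Foxo1AAA tumours, Akt/Nras tumours and normal livers, and Ppargc1b, its relative, 0.395 ± 0.141, 0.147 ± 0.0594 and 2.11 ± 0.176 FPKM. Ppargc1b passed the filter only through the normal livers, so its fall was partly set by that filter. Tfam, which packs and transcribes mitochondrial DNA, averaged 7.12 ± 0.306, 7.19 ± 0.336 and 14.1 ± 0.846 FPKM. Nrf1 rose in Akt/Nras tumours and Gabpb1 in both tumour groups, at 1.22 ± 0.0650, 1.66 ± 0.136 and 0.996 ± 0.159 FPKM for Nrf1 and 1.77 ± 0.185, 1.82 ± 0.252 and 1.22 ± 0.195 FPKM for Gabpb1. With equal totals 5 of the 13 were lower and 5 higher in Akt/Nras/Foxo1AAA tumours, beside 13.5% and 61.2% of all tested genes. In Akt/Nras tumours 2 were lower and 6 higher, beside 13.8% and 69.2%.

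Among 16 genes of the mitochondrial membranes, import and folding, 12 fell in Akt/Nras/Foxo1AAA and 11 in Akt/Nras tumours, beside 36.5% and 37.9% of all tested genes, and 1 rose in each, beside 26.8% and 31.1%. The one that rose was Slc25a4, the ADP/ATP carrier form known from heart and muscle, at 46.7 ± 4.14, 63.4 ± 10.7 and 11.3 ± 7.52 FPKM in Akt/Nras/Foxo1AAA tumours, Akt/Nras tumours and normal livers. Slc25a5, another ADP/ATP carrier, fell, at 240.3 ± 15.7, 215 ± 13.7 and 352 ± 15.1 FPKM. Vdac2 and Tomm20, both of the outer membrane, did not pass the test in either tumour group, with log2 changes between -0.21 and 0.19. With equal totals 2 of the 16 were lower and 8 higher in Akt/Nras/Foxo1AAA tumours, where 13.5% of all tested genes were lower and 61.2% higher, and 0 lower and 11 higher in Akt/Nras tumours, where 13.8% were lower and 69.2% higher, so the higher counts lie near those of all genes.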

How the data were processed

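RNA sequencing of liver tissue gave 10 libraries, and the authors deposited 1 table of FPKM per gene and library. Total RNA was extracted with Quick-RNA Miniprep and libraries were made by polyA capture or rRNA removal, per the labels' protocols, which do not say by which. FastQC 0.11.7 and GRCm38 are listed in the submitters' processing notes, while the sources used here name neither aligner nor counter. All 10 columns were mapped to samples, with 0 left unmapped. Reads were recovered from FPKM and gene length as whole multiples within 0.05 reads for 99.95% to 99.99% of values above 0, for depth only.

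log2(FPKM + 1) of genes with at least 1 FPKM in at least 3 libraries was fitted with limma 3.58.1 in R 4.3.3, all 3 groups in 1 fit with a trended prior, and p-values were adjusted by Benjamini-Hochberg at 0.05. The fit was tested on simulated data. The unit of FPKM, not counts, led to this test. Alternatives changed the pseudocount, the filter, the scaling, the libraries in the fit and the replicate block. numpy 2.4.6, pandas 2.3.3 and matplotlib 3.10.9 were also used.

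The subunit genes and gene lists were chosen with earlier results of these data known. Values per library are given for core subunits, tissue isoforms, the extremes of each complex and genes called between the tumour groups. From other lists up to 3 genes with the largest change in Akt/Nras tumours were to be named. Ndufb2, mt-Co1, mt-Nd1, mt-Atp8, Cox19, Mdh2, Tfam, Nrf1, Gabpb1, Slc25a5, Vdac2, Tomm20 and others named beyond that were chosen after their values were seen. The values of 1 gene are not reported here, though it enters the counts, medians and sums.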

Additional observations from a re-analysis of the deposited data

Results flagged for a closer look

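In 47 sets of 4 normal livers, the lowest or highest library was compared with its nearest neighbour, and 2 sets had 1 library whose gap to the others, divided by the whole range, exceeded Dixon's critical value for 4 samples. Chance alone marks about 1 in 20 sets. Ndufa4l2 had 1 normal liver at 1.95 FPKM beside 3.82, 3.87 and 4.04 FPKM, a gap of 0.893 of the range. Ndufv2, the iron-sulfur subunit of the NADH-oxidising module, had 1 normal liver at 88.4 FPKM beside 78.7, 79.0 and 79.1 FPKM, a gap of 0.955 of the range.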

How the results depend on the processing

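Against normal liver, equal totals lowered the number of subunit genes called lower to 58 of 82 in Akt/Nras/Foxo1AAA tumours and to 47 in Akt/Nras tumours, and scaling that ignores the 50 genes of highest FPKM lowered it to 66 in each. Of all 12439 tested genes, 1678 and 1714 were lower with equal totals and 1916 and 2195 with those 50 ignored, in the same order of groups. The number called higher in Akt/Nras/Foxo1AAA tumours was 5 with equal totals, 4 with those 50 ignored, 1 with median ratio scaling, 1 with only the 2 groups compared and 0 to 1 with each library left out. In Akt/Nras tumours it was 2 with no filter, 7 with equal totals and 3 when those 50 were ignored. Of all tested genes, 7613 were higher with equal totals and 6845 with those 50 ignored in Akt/Nras/Foxo1AAA tumours, and 8614 and 7489 in Akt/Nras tumours. Between the tumour groups, 0 were called higher with no filter, equal totals, those 50 ignored or only the 2 groups compared. Over all tested genes 595 of 27446, 650, 803 and 5 were called higher in these fits, in that order. The number of subunit genes lower between the tumour groups was 5 with equal totals and 1 with those 50 ignored, beside 3015 and 1239 of all tested genes. With each library left out, 0 to 10 were higher and 0 to 1 lower, beside 402 to 1247 and 148 to 706 of all tested genes. The 10 and the 1 came without the third Akt/Nras/Foxo1AAA tumour. The cause was not tested.

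Same-numbered libraries correlated at -0.17 to 0.112 in their deviations from the group means (9 pairs), and differently numbered ones at -0.15 to 0.196 (24 pairs). With so few libraries per group these ranges cannot decide whether the numbers pair them, and the labels do not say so. With the replicate block 77 fell and 1 rose in each tumour group, and 0 differed between the tumour groups. Over all tested genes 4201 fell and 3037 rose in Akt/Nras/Foxo1AAA tumours, and 4391 fell and 3572 rose in Akt/Nras tumours. Between the tumour groups 332 of all tested genes were higher and 136 lower with this block.

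With equal totals 7 genes turned from below 0 to above it in Akt/Nras/Foxo1AAA tumours and 15 in Akt/Nras tumours. Of the genes described singly, these were in Akt/Nras/Foxo1AAA tumours Atp5b (0.020), Ndufa11 (0.22) and Cox7a2l (0.57), and in Akt/Nras tumours among others Atp5b (0.13), Atp5g2 (0.18), Cox7a2 (0.11), Sdhc (0.052), Ndufa11 (0.24) and Cox7a2l (0.97). With those 50 ignored they turned in Akt/Nras/Foxo1AAA tumours for Ndufa11 (0.10) and Cox7a2l (0.45) and in Akt/Nras tumours for Cox7a2l (0.70). Cox7a2l in Akt/Nras tumours, at 0.00 as deposited, also stood at 0.092 with median ratio scaling and between -0.13 and 0.16 without 1 library, above 0 in 3 such fits. Low genes turned too: Cox7a1 in Akt/Nras tumours ran from -0.16 to 0.31 without 1 library, the lowest without the first of them, and Cox4i2 in Akt/Nras/Foxo1AAA tumours was -0.016 with a pseudocount of 0.1, -0.022 with the replicate block and ran from -0.16 to 0.35 without 1 library.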
